A study of Mus musculus with 2 samples.

Results

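Angiogenic activation of tumor vessels was examined through 10 genes that are known from sprouting or tumor endothelium, *Esm1*, *Dll4*, *Cxcr4*, *Adm*, *Pgf*, *Nid2*, *Vwa1*, *Plvap*, *Insr* and *Trp53i11*. They were taken by name and make up 10 of the 32285 genes in both count matrices. All 10 passed the minimum of 100 UMIs (unique molecular identifiers, each standing for 1 captured RNA molecule) in tumor endothelial cells (TECs), and each is described below in units of CPM (UMI counts scaled to an equal library total) and as the share of cells with at least 1 UMI.

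The study sequenced single cells that had been sorted as CD31+CD45- from YUMMER1.7 melanoma, a mutation-rich mouse melanoma line, grown in female mice of 8 to 10 weeks. The sources differ on the site: the labels' protocol describes subcutaneous tumors, whereas the study's methods describe lung tumors after injection into the tail vein. The libraries held lung cells: in epithelial cells, *Epcam* and the lung genes *Sftpc* and *Ager* summed to 118159 CPM in control and 62956 CPM in Dnmt1iECKO. No library of normal lung was available for comparison. The control library is labelled C57BL/6 and the study's methods give the control mice as *VEcad*-CreERT2 with a ZsGreen reporter, *VEcad* being another name of *Cdh5*; the other library, called Dnmt1iECKO, is labelled *Cdh5*CreERT2;*Dnmt1*fl/fl;ZsGreenlsl/lsl. *Cdh5* drives the tamoxifen-activated Cre in endothelium of every organ, so the deletion of *Dnmt1* was not limited to tumor vessels. Each group is a single library made from pooled tumors of 3 mice, so the comparison has no replicate check and no test: all intervals are exact 95% intervals that cover counting error only, and a gene is counted as different where its CPM differed by at least 1.5-fold.

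After filtering, 7764 control and 7839 Dnmt1iECKO cells remained, of which 4854 and 2066 were TECs with a UMI of *Cdh5* or *Pecam1*, at a median of 9595.5 and 9761.5 UMIs per cell. *Dnmt1* itself was at 49.0 CPM in control and 26.7 CPM in Dnmt1iECKO TECs (0.544-fold, interval 0.500 to 0.592). A 3′ tag counts the end of the transcript and does not check the deleted exons. The 2 libraries shared 29 cell barcodes. Although the labels name the cells as melanoma cells, TECs were the largest group of control cells. Cells with a *Ptprc* UMI and no *Cdh5* or *Pecam1* UMI numbered 564 and 2077 despite the CD45- sort, whereas *Ptprc* and *Epcam* were at 0 in TECs because cells with a UMI of them were left out.

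Sprouting vessels are led by tip cells, which respond to VEGF and guide the sprout, while Notch signaling set off by the tip cell ligand *Dll4* restrains the neighbors. *Esm1*, *Cxcr4*, *Adm*, *Apln* and *Angpt2* are widely used tip cell genes, and *Plvap*, *Insr*, *Nid2*, *Vwa1* and *Trp53i11* have been associated with vessels of tumors. In the lung, *Ednrb*+*Car4*+ aerocytes and *Kit*+ general capillary cells form the alveolar bed, and normal arteries also carry *Dll4* and *Cxcr4*, so a tip cell gene read alone does not identify a sprouting cell.

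*Dnmt1* copies DNA methylation at CG dinucleotides when a cell divides. RefSeq promoters were matched for 6 of the 10 genes. For 5 of these, all but *Pgf*, the 250 bases before the RefSeq transcript start are shown as context for that activity. They are given in GRCm38.p6, 5′ to 3′ on the gene's own strand, with each CG in capitals. No methylation was measured in these libraries.

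Esm1 (chr13:113209409-113209658, plus strand): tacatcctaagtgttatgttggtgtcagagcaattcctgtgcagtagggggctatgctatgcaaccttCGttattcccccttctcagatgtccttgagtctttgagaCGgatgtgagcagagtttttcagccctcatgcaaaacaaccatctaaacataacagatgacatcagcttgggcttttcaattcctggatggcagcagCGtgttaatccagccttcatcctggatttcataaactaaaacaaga

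Adm (chr7:110627407-110627656, plus strand): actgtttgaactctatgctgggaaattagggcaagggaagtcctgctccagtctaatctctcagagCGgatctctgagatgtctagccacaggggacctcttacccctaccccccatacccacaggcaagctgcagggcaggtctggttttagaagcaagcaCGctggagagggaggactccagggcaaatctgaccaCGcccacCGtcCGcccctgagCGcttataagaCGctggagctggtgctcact

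Cxcr4 (chr1:128592300-128592549, minus strand): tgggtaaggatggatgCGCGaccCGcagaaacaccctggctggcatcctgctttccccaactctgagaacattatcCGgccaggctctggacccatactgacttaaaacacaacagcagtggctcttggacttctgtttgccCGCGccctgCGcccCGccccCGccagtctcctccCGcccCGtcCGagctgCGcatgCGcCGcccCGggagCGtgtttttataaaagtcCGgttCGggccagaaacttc

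Dll4 (chr2:119325534-119325783, plus strand): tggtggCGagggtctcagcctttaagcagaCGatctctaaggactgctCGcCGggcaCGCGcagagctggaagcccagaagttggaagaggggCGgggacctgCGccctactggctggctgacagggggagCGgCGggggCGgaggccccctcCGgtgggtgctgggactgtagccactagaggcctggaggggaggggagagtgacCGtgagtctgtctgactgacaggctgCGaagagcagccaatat

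Trp53i11 (chr2:93187298-93187547, plus strand): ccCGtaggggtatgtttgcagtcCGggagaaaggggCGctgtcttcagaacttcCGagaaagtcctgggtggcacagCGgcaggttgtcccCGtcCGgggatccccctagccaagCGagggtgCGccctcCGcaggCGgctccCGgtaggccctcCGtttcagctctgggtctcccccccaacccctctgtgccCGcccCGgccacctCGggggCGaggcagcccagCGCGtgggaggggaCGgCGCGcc

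The *Esm1* promoter held 3 CG dinucleotides, the fewest of the 5, and 71.0% of 32851 RefSeq promoters of this length held at least as many. The *Adm* promoter held 7, *Dll4* 14, *Cxcr4* 19 and *Trp53i11* 22, against a median of 6 over all promoters. Both strands were also searched for ACGTG, the core of the hypoxia response element, for TGGGAA, a core bound by the Notch factor Rbpj, and for TTCNNNGAA, the STAT element. ACGTG (in 16.6% of all promoters) was found in none of the 5 windows. TGGGAA (in 21.6%) was found once, in *Adm*, 232 bases before the start, and TTCNNNGAA (in 7.02%) once, in *Trp53i11*, 199 bases before the start. A match is a description of the letters and not a bound site. The exons of *Nid2*, *Vwa1* and *Dll4* overlap other genes on the opposite strand (*Rtraf*, *Atad3aos* and *Gm26840*, and *Gm14207*), and none of the 10 shares exons with a gene on its own strand. *Insr* (chr8:3122061-3279617) and *Plvap* (chr8:71497765-71511752) lie on chromosome 8, *Pgf* at chr12:85166635-85177790, *Nid2* at chr14:19751265-19811787 and *Vwa1* at chr4:155768149-155774698 in GRCm38.

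In TECs as a whole, *Pgf* and *Nid2* were the only ones of the 10 genes that were at least 1.5-fold higher in Dnmt1iECKO. Of the 13011 genes with 100 UMIs, 7.67% were higher by this measure and 2.13% were lower, and 0 of the 10 were lower. The median log2 ratio of the 10 genes was 0.17, beside -0.01 over all genes. At a fold of 2, *Pgf* was the single gene of the 10 that was higher, among 2.41% of all genes, and 0 were lower, among 0.715%. With a minimum of 10 UMIs, 14.1% and 6.13% of genes differed by 1.5-fold.

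*Pgf*, placental growth factor, a VEGF family ligand of *Flt1*, was at 2.21 CPM in the control library (1.84 to 2.64), compared with 4.50 CPM (3.72 to 5.39) in Dnmt1iECKO TECs, a log2 ratio of 1.03 (0.65 to 1.40). *Nid2*, a nidogen that ties laminin to collagen IV in the basement membrane, was at 2.46 CPM (2.07 to 2.91) versus 3.84 CPM (3.12 to 4.67), giving a log2 ratio of 0.64 (0.25 to 1.02). Both rest on few molecules, 123 and 116 UMIs of *Pgf* and 137 and 99 of *Nid2*. Fibroblasts and pericytes of the same libraries held more *Pgf*, at 19.6 and 22.3 CPM in fibroblasts and 69.9 and 111 CPM in pericytes and smooth muscle cells. The summed level of 5 fibroblast markers (*Dcn*, *Col1a1*, *Col1a2*, *Lum*, *Pdgfra*) moved in the same direction in TECs, from 302 to 669 CPM, and its part in these results was not tested. That level was concentrated in the 775 control and 392 Dnmt1iECKO TECs that passed none of the class gates described below, at 2557 and 4293 CPM. In the TECs with a class, in which 6.66% of genes were higher and 2.34% lower, *Pgf* (log2 0.79, 0.26 to 1.31) and *Insr* (log2 0.61, 0.53 to 0.68) were 1.5-fold higher, *Nid2* was not (log2 0.50, -0.01 to 1.01), and 0 of the 10 were lower. The fibroblast sum was still unequal there, at 82.4 and 216 CPM, and *Pgf* had a log2 ratio of 0.10 when cells with *Epcam*, *Cspg4* or *Myh11* were kept.

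*Insr*, the insulin receptor, and *Vwa1*, a matrix protein of basement membranes, lay just under the 1.5-fold line. *Insr* was at 74.8 CPM in the control library (72.5 to 77.1), compared with 110.2 CPM (106 to 114) in Dnmt1iECKO TECs, a log2 ratio of 0.56 (0.49 to 0.63). *Vwa1* was at 11.3 CPM (10.4 to 12.2) versus 16.6 CPM (15.02 to 18.2), giving a log2 ratio of 0.55 (0.37 to 0.73). For each of them the intervals of the 2 libraries did not overlap. *Plvap*, which builds the diaphragms of fenestrae and caveolae, went the other way, from 654 CPM (648 to 661) in control down to 510 CPM (501 to 519), giving a log2 ratio of -0.36 (-0.39 to -0.33).

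*Esm1*, *Dll4*, *Cxcr4*, *Adm* and *Trp53i11* differed little over all TECs. Other tip cell genes differed more: *Pgf* was higher in Dnmt1iECKO, as given above, and *Apln* was lower and *Angpt2* higher, as given below. *Esm1*, an endothelial proteoglycan released in response to VEGF, was at 11.4 CPM (10.5 to 12.3) versus 13.6 CPM (12.2 to 15.1), giving a log2 ratio of 0.26 (0.07 to 0.45) that fell to 0.18 with an interval across 0 (-0.02 to 0.38) once the single cell with most *Esm1* was left out of each library. The interval of the log2 ratio held 0 for *Dll4* (0.02, -0.06 to 0.10), for *Cxcr4*, the receptor of *Cxcl12* (0.04, -0.17 to 0.24), for *Adm*, which encodes the vasodilator peptide adrenomedullin (0.09, -0.18 to 0.36), and for *Trp53i11*, a p53-induced gene (-0.01, -0.12 to 0.10). These intervals reach at most 0.12 from 0 on the log2 scale for *Dll4* and *Trp53i11*, and 0.36 for *Adm*. They cover counting error only and set no limit on a difference between the conditions. *Trp53i11* was at -0.28 with the classes weighted as in the control library, and *Dll4* at -0.16 where only cells with *Ptprc* were left out.

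**Figure D1:**
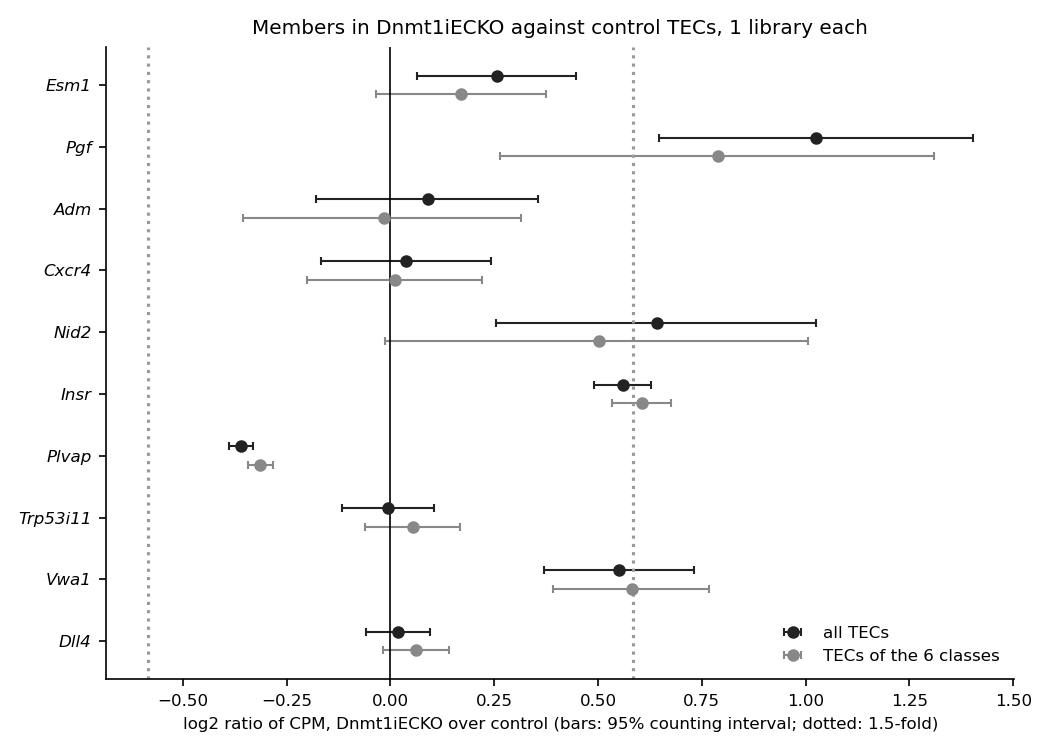
Log2 ratio of Dnmt1iECKO over control CPM for the 10 genes, over all TECs and over TECs of the 6 classes, with exact 95% intervals for counting error. *Pgf* and *Nid2* lie furthest to the right, at 1.03 and 0.64 over all TECs, and *Plvap* is the only gene whose interval lies wholly below 0.

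TECs were split by marker genes into 6 classes with 3 or more UMIs of *Ubd*, an interferon-induced gene (65 control and 70 Dnmt1iECKO cells), of *Ednrb* and *Car4* (1408 and 446), of *Kit* and *Bmp6* (2186 and 823), of *Slc6a2* and *Selp* (210 and 191), of *Gja5* and *Bmx* (99 and 83) or of *Mki67* (111 and 61). Sums of markers that the gates did not use followed their names in both libraries: aerocyte markers summed to 3156 and 2547 CPM in *Ednrb*/*Car4* TECs, artery markers to 2051 and 1779 CPM in *Gja5*/*Bmx* TECs, vein markers to 2224 and 2903 CPM in *Slc6a2*/*Selp* TECs, and interferon gamma targets to 3082 and 3330 CPM in *Ubd* TECs. Proliferation markers summed to 1966 and 2150 CPM in *Mki67* TECs. Not every single marker did so. The artery marker *Fbln5* was at 96.0 and 141 CPM in *Gja5*/*Bmx* TECs and at 159 and 145 CPM in *Slc6a2*/*Selp* TECs. In control, the vein marker *Ackr1* was at 69.0 CPM in *Slc6a2*/*Selp* TECs and 96.0 CPM in *Ubd* TECs. The classes did not make up the same share of each library. *Slc6a2*/*Selp* TECs were 4.33% of control and 9.24% of Dnmt1iECKO TECs, *Ubd* TECs 1.34% and 3.39%, and *Ednrb*/*Car4* TECs 29.0% and 21.6%.

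The 10 genes did not share a single class. A gene was called for a class where its CPM differed from that of the other classes by at least 1.5-fold in the same direction in both libraries. *Gja5*/*Bmx* and *Ubd* TECs held most of the higher calls, *Ednrb*/*Car4* TECs held lower calls and no higher one, and the genes fell into a *Gja5*/*Bmx* group (*Esm1*, *Adm*, *Cxcr4*, *Dll4*), a group of *Ubd* and *Mki67* TECs (*Trp53i11*, *Vwa1*, *Nid2*) and *Insr*, which was highest in *Slc6a2*/*Selp* TECs.

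**Figure D2:**
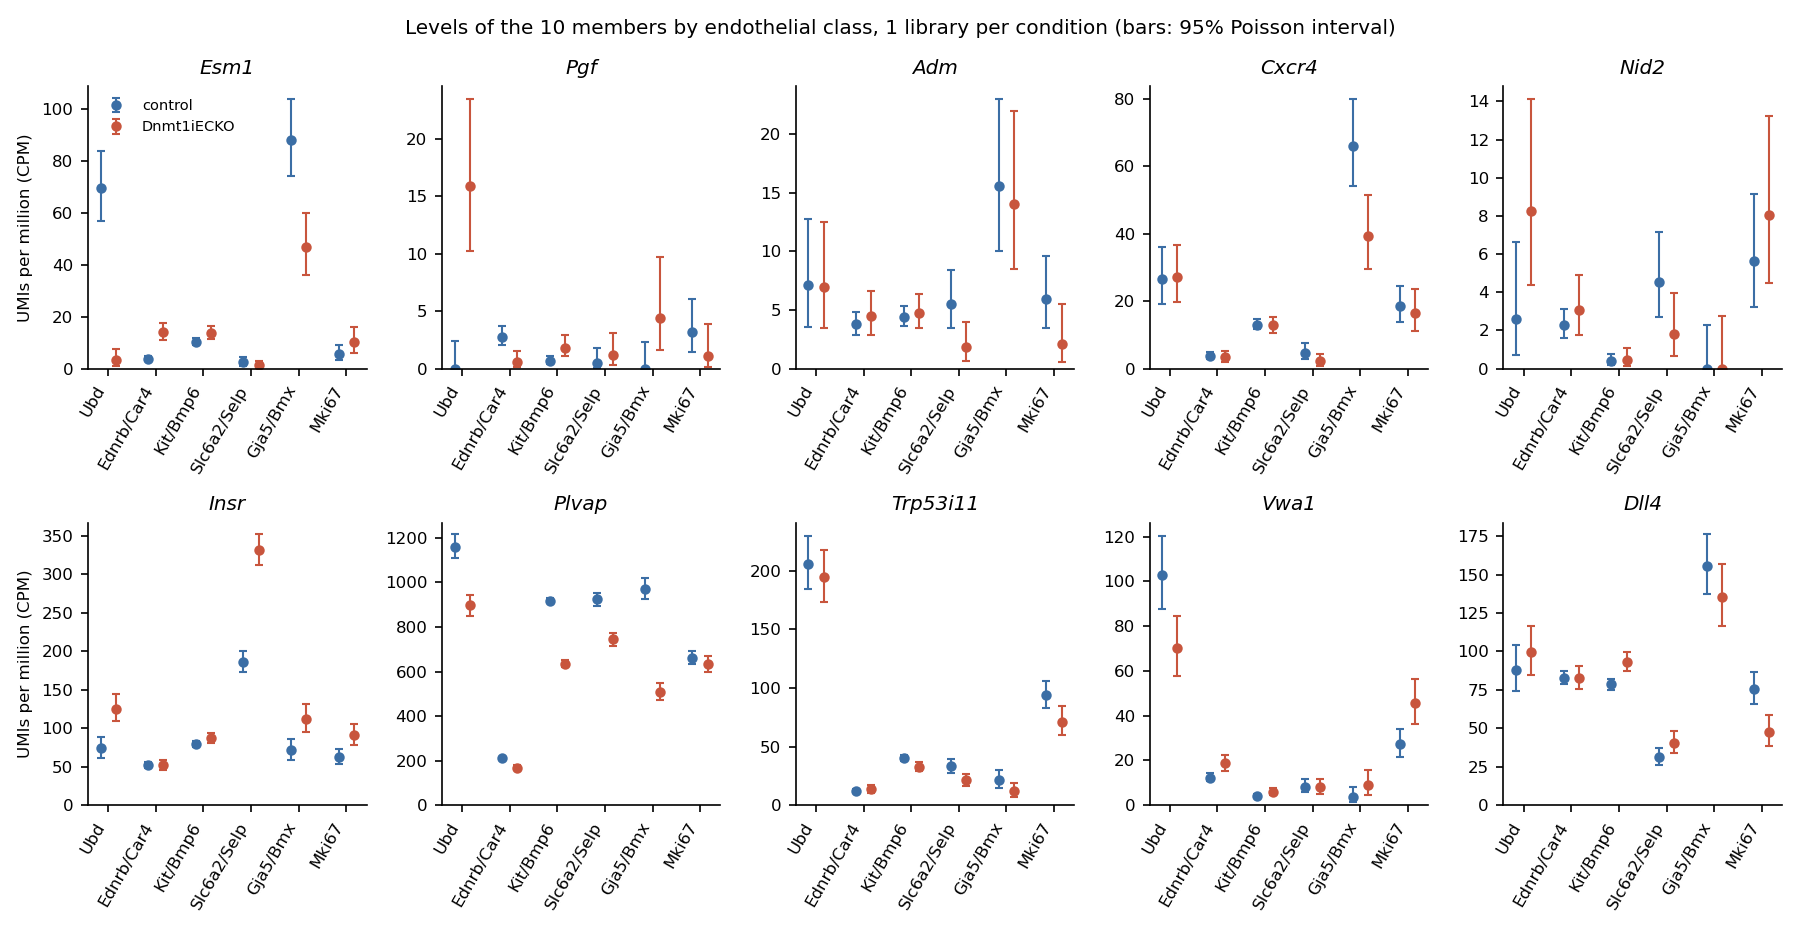
CPM of each of the 10 genes in the 6 classes of TECs in the control and Dnmt1iECKO libraries, with exact 95% intervals for counting error. *Esm1*, *Adm*, *Cxcr4* and *Dll4* are highest in *Gja5*/*Bmx* TECs on the mean of the libraries, *Trp53i11* and *Vwa1* in *Ubd* TECs, and *Insr* in *Slc6a2*/*Selp* TECs.

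In *Gja5*/*Bmx* TECs, 4 of the 10 genes were higher in both libraries, among 5.3% of all genes, and 3 (*Nid2*, *Trp53i11*, *Vwa1*) were lower, among 6.37%. Of the higher calls, that of *Cxcr4* held under 8 of 8 other ways to build or scale the classes. The *Esm1* call was lost with Leiden clusters, where *Esm1* was called in *Ubd* TECs instead, the *Dll4* call with a gate of 2 UMIs, and the *Adm* call with Leiden clusters and with a gate of 4 UMIs. *Esm1* was at 87.9 CPM in the control library (74.0 to 104), compared with 46.7 CPM (35.9 to 59.7) in Dnmt1iECKO TECs of this class, log2 3.28 and 2.10 above the other classes. *Cxcr4* was at 66.1 CPM (54.1 to 79.9) and 39.3 CPM (29.4 to 51.4), log2 2.72 and 1.95 above the others. With the gates in order, *Gja5*/*Bmx* TECs of the control library carried the higher level of both genes, with intervals that did not overlap between libraries (log2 ratio of Dnmt1iECKO over control -0.91 for *Esm1*, -1.36 to -0.47, and -0.75 for *Cxcr4*, -1.25 to -0.26). This did not hold with cells that pass 1 gate only, which left 14 control and 19 Dnmt1iECKO *Gja5*/*Bmx* TECs with 180563 and 214534 UMIs. In them *Esm1* had 11 UMIs in control and 32 in Dnmt1iECKO, and *Cxcr4* 10 in each. The summed fibroblast markers of this class were at 82.3 CPM in control and 747 CPM in Dnmt1iECKO, and their part in its library differences was not tested.

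*Dll4* in the same class stood at 156 CPM (137 to 176) and 136 CPM (117 to 157), log2 1.03 and 0.78 above the others, and here the libraries overlapped. *Adm* was at 15.6 CPM (10.1 to 23.0) and 14.1 CPM (8.48 to 22.0), from 25 and 19 UMIs, of which 11 and 9 came from a single cell. *Nid2* had 0 UMIs in all 182 cells of the class, which allows up to 2.30 CPM in control and 2.73 CPM in Dnmt1iECKO TECs. *Plvap* was called neither way in this class, but it showed its widest library difference there, at 971 CPM (924 to 1021) versus 510 CPM (472 to 549), giving a log2 ratio of -0.93 (-1.06 to -0.80). With cells that pass 1 gate only, *Plvap* had 108 of 180563 UMIs in control and 129 of 214534 in Dnmt1iECKO, so this difference was not seen there.

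*Ubd* TECs held 6 of the 10 genes at a higher level (*Trp53i11*, *Vwa1*, *Cxcr4*, *Plvap*, *Adm*, *Nid2*), among 5.67% of all genes, and 0 at a lower level, among 16.2%. *Trp53i11* was at 206 CPM in the control library (184 to 230), compared with 195 CPM (174 to 218) in Dnmt1iECKO, log2 2.66 and 2.80 above the other classes. These 65 and 70 cells held 318 of 2124 and 307 of 980 *Trp53i11* UMIs of all TECs, but 2.77% and 6.11% of the UMIs of all genes. *Vwa1* was at 103 CPM (87.7 to 120) and 70.4 CPM (57.9 to 84.8), log2 3.58 and 2.41 above the others, and its UMIs came from 35 of 65 and 34 of 70 cells.

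*Plvap* reached its highest level in *Ubd* TECs, at 1161 CPM (1108 to 1216) and 897 CPM (851 to 945). *Cxcr4* was at 26.6 and 27.3 CPM there, below its level in *Gja5*/*Bmx* TECs. The calls of *Adm* and *Nid2* in *Ubd* TECs rest on 11 UMIs of *Adm* in each library and on 4 and 13 UMIs of *Nid2*, and they held under only 3 of these 8 alternatives. *Esm1* stood at 69.4 CPM in control *Ubd* TECs and 3.17 CPM in Dnmt1iECKO *Ubd* TECs. That contrast comes from 7 and 3 cells: 4 control cells with 10 or more UMIs held 93 of the 107 UMIs, and no such cell was among the 70 of Dnmt1iECKO. The fibroblast sum in this class was 4.54 CPM in control and 119 CPM in Dnmt1iECKO, and its part was not tested.

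*Mki67* TECs held *Nid2*, *Trp53i11* and *Vwa1* at a higher level, 3 of the 10 genes among 12.2% of all genes, and 0 at a lower level, among 10.8%. *Trp53i11* was at 94.3 CPM (83.4 to 106) and 71.3 CPM (59.7 to 84.5) there, and *Vwa1* at 27.5 CPM (21.7 to 34.3) and 45.5 CPM (36.4 to 56.3). *Nid2* stood at 5.63 and 8.04 CPM from 16 and 15 UMIs. None of the *Gja5*/*Bmx* group was called in these dividing cells in the main setting, where *Esm1* was at 5.63 and 10.2 CPM and *Cxcr4* at 18.7 and 16.6 CPM. *Cxcr4* was called higher with a gate of 4 UMIs, with Leiden clusters and with both *Cdh5* and *Pecam1* required. It was called lower with cells that pass 1 gate only, as were *Esm1*, *Adm* and *Dll4*. *Esm1* was also called lower with a gate of 2 UMIs and without the top cell, and *Adm* when the gate with most UMIs took the cell. With cells that pass 1 gate only, which left 9 and 5 *Mki67* TECs, no gene was called higher: *Vwa1* had 0 UMIs in both libraries, against 78 and 85 here, and counted as lower. The *Trp53i11* call was also lost with Leiden clusters and when the gate with most UMIs took the cell. The fibroblast sum in *Mki67* TECs was 300.2 and 884 CPM, and its part was not tested.

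*Insr* was the single gene of the 10 that was higher in *Slc6a2*/*Selp* TECs, among 5.59% of all genes, while *Esm1*, *Pgf*, *Cxcr4* and *Dll4* were lower, among 8.26%. *Insr* stood there at 187 CPM in the control library (173 to 200), compared with 332 CPM (312 to 352) in Dnmt1iECKO TECs, log2 1.45 and 2.01 above the other classes. With 38.2% of the *Insr* UMIs of Dnmt1iECKO TECs and 17.8% of those of control TECs, this class held more of the gene than its 12.7% and 7.13% of all UMIs. The library difference in this class was a log2 ratio of 0.83 (0.69 to 0.97), and 0.79 (0.65 to 0.94) without the top cell of each library, which held 84 and 140 UMIs. The platelet markers *Ppbp* and *Pf4* summed to 17.9 CPM in control and 182 CPM in Dnmt1iECKO TECs of this class, and their part in the difference was not tested.

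The *Insr* difference was not the same in each class. The log2 ratio was 0.76 (0.42 to 1.11) in *Ubd* TECs, 0.66 (0.29 to 1.02) in *Gja5*/*Bmx* TECs and 0.53 (0.22 to 0.84) in *Mki67* TECs. In *Kit*/*Bmp6* TECs it was 0.13 (0.01 to 0.25) and in *Ednrb*/*Car4* TECs -0.01 (-0.20 to 0.19), so the 2 capillary classes lay below the interval of the *Slc6a2*/*Selp* class. Leukocytes of the same libraries had a log2 ratio of 0.07 (-0.13 to 0.27) and fibroblasts 0.13 (-0.11 to 0.38). With the classes of Dnmt1iECKO weighted as in the control library, the log2 ratio over all TECs was 0.31 in place of 0.56.

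*Dll4* was lowest in *Slc6a2*/*Selp* TECs, at 31.2 CPM (26.0 to 37.2) and 40.6 CPM (34.0 to 48.1), log2 -1.41 and -1.14 against the other classes. *Cxcr4* fell to 4.78 and 2.14 CPM and *Esm1* to 2.52 and 1.22 CPM in this class. On the mean of the libraries, this class was the lowest for all 4 genes that were highest in *Gja5*/*Bmx* TECs.

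The alveolar capillaries differed between their cell types. In *Ednrb*/*Car4* TECs, 4 of the 10 genes (*Plvap*, *Cxcr4*, *Trp53i11*, *Insr*) were lower in both libraries, among 15.2% of all genes, and 0 were higher, among 7.38%. *Plvap* was at 210 CPM (203 to 217) and 169 CPM (158 to 180) there, log2 -2.12 and -1.99 against the other classes. The share of cells with a *Plvap* UMI, at an equal depth of 2000 UMIs per cell, was 19.6% and 17.1%, whereas it was 72.1% and 60.4% in *Kit*/*Bmp6* TECs. *Cxcr4* was at 3.78 and 3.41 CPM, and *Trp53i11* at 11.9 and 13.6 CPM. *Dll4*, in contrast, was at 82.9 CPM in this class in both libraries, level with the 78.6 and 93.1 CPM of *Kit*/*Bmp6* TECs.

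In *Kit*/*Bmp6* TECs, the most numerous class, *Vwa1*, *Nid2* and *Pgf* were lower, 3 of the 10 genes among 9.25% of all genes, and 0 were higher, among 3.68%. *Vwa1* stood at 4.19 CPM (3.41 to 5.09) and 6.03 CPM (4.56 to 7.83), log2 -2.11 and -2.04 against the others. *Nid2* had 10 and 4 UMIs in 2186 and 823 cells. *Pgf* had 16 and 17 UMIs, and its call held under 4 of 8 alternatives. With cells that pass 1 gate only, *Esm1*, *Cxcr4*, *Plvap* and *Trp53i11* were called higher in this class. *Plvap* in this class was at 919 CPM (907 to 931) versus 636 CPM (620 to 652), giving a log2 ratio of -0.53 (-0.57 to -0.49).

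The *Plvap* difference ran in the same direction in 5 of the 6 classes with intervals below 0, from -0.31 in *Slc6a2*/*Selp* TECs to -0.93 in *Gja5*/*Bmx* TECs. In *Mki67* TECs the interval held 0 (-0.06, -0.17 to 0.05), where 1 Dnmt1iECKO cell held 159 of 1184 UMIs. *Plvap* in leukocytes, at 3.34 and 5.83 CPM, differed in the other direction.

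Within the classes, the number of the 10 genes that differed by 1.5-fold between the libraries ranged from 1 of 9 in *Kit*/*Bmp6* TECs to 5 of 7 in *Gja5*/*Bmx* TECs, counted among genes with 20 UMIs in the class. In *Slc6a2*/*Selp* TECs, *Insr* was higher in Dnmt1iECKO (1 of 8, among 6.03% of all genes) and *Adm*, *Cxcr4*, *Nid2* and *Trp53i11* were lower (among 8.53%), from 24 to 28 UMIs for the first 3 of them. In *Gja5*/*Bmx* TECs, *Insr* was higher (1 of 7, among 10.7%) and *Esm1*, *Cxcr4*, *Plvap* and *Trp53i11* were lower (among 8.64%), beside the unequal fibroblast sum given above for this class. In *Ubd* TECs, *Pgf* and *Insr* were higher (2 of 9, among 10.2%) and *Esm1* was lower (among 7.24%).

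The other classes were mixed as well. In *Ednrb*/*Car4* TECs, *Esm1* and *Vwa1* were higher (2 of 10, among 6.48%) and *Pgf* was lower (among 6.09%). With cells that pass 1 gate only, *Esm1* had 28 UMIs in 1020 control and 0 in 316 Dnmt1iECKO TECs of this class. *Mki67* TECs had *Esm1* and *Vwa1* higher (2 of 9, among 8.37%) and *Adm* and *Dll4* lower (among 9.07%). Of these, *Esm1* rested on 16 and 19 UMIs (log2 0.85, -0.18 to 1.91), and its log2 ratio was 0.25 without the top cells. *Adm* rested on 17 and 4 UMIs (log2 -1.48, -3.51 to 0.14), so both intervals held 0. In *Kit*/*Bmp6* TECs, *Pgf* was higher (1 of 9, among 6.99%) and 0 were lower (among 5.29%). That *Pgf* difference rested on 1 cell with 12 of the 17 Dnmt1iECKO UMIs: without the top cell of each library the log2 ratio fell from 1.46 to 0.13 (-1.73 to 1.74).

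*Vwa1* did not keep 1 direction across classes. It was higher in Dnmt1iECKO in *Ednrb*/*Car4* (log2 0.59, 0.24 to 0.94), *Kit*/*Bmp6* (0.53, 0.03 to 1.01) and *Mki67* TECs (0.73, 0.27 to 1.19), and lower in *Ubd* TECs (-0.55, -0.91 to -0.19). *Dll4* likewise had a log2 ratio of 0.24 (0.13 to 0.36) in *Kit*/*Bmp6* TECs and -0.67 (-1.04 to -0.30) in *Mki67* TECs. *Trp53i11* was lower in Dnmt1iECKO in *Kit*/*Bmp6* (-0.32, -0.51 to -0.13), *Slc6a2*/*Selp* (-0.64, -1.08 to -0.21) and *Mki67* TECs (-0.40, -0.72 to -0.10), while its ratio over all TECs was near 0. These differences between classes have no replicate and were not tested.

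*Pgf* had no class of its own. It was at 2.76 CPM (46 UMIs, of which 18 in 1 cell) in control and 0.538 CPM (3 UMIs) in Dnmt1iECKO *Ednrb*/*Car4* TECs. In *Ubd* TECs it had 0 UMIs in control, which allows up to 2.39 CPM, and 15.9 CPM in Dnmt1iECKO, where 18 of 25 UMIs came from 1 cell. Ordered by the mean of the libraries, none of the 5 neighboring classes was apart for *Pgf*, that is, the values of the libraries overlapped at each step.

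The order of the classes was clearest for *Cxcr4*, where 4 of 5 neighbors were apart (*Gja5*/*Bmx*, *Ubd*, *Mki67*, *Kit*/*Bmp6*, *Ednrb*/*Car4*, *Slc6a2*/*Selp*, from highest to lowest, with the last pair overlapping). For *Trp53i11* the order was *Ubd*, *Mki67*, *Kit*/*Bmp6*, *Slc6a2*/*Selp*, *Gja5*/*Bmx* and *Ednrb*/*Car4*, and 3 of 5 neighbors were apart. *Vwa1* and *Dll4* also had 3 of 5 neighbors apart, *Adm*, *Nid2* and *Insr* 2, and *Esm1* and *Plvap* 1. For *Esm1* the step that stood apart was the last one, down to *Slc6a2*/*Selp* TECs.

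*Esm1*, *Cxcr4*, *Adm* and *Pgf* each had a UMI in few TECs. With *Apln* and *Angpt2* added, at least 1 of the 6 genes had a UMI in 22.5% of control and 18.1% of Dnmt1iECKO TECs after thinning. Without *Apln* these shares were 5.38% and 6.39%. At 2000 UMIs per cell, which left 4497 control and 1894 Dnmt1iECKO TECs and dropped 357 and 172 shallower ones, *Esm1* had a UMI in 1.40% (1.08 to 1.79) of control and 1.21% (0.771 to 1.82) of Dnmt1iECKO TECs. Without thinning these shares were 3.52% and 3.05%. The thinned share was 0.367% and 0.250% in leukocytes, at a similar median depth of 9426 and 8450 UMIs, so the TEC share was the higher one in each library. In control the leukocyte share rests on few cells with a UMI, and its interval overlaps that of TECs. In epithelial cells, however, *Esm1* was found in 5 of 116 control cells (4.31%, 1.41 to 9.77) and in 0 of 72 Dnmt1iECKO cells, which allows a share of up to 4.17%.

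*Cxcr4* had a UMI in 1.62% and 2.06% of TECs and in 16.9% and 22.1% of leukocytes, where it is a known chemokine receptor. *Adm* had a UMI in 0.689% and 0.686% of TECs and in 8.04% and 10.2% of fibroblasts, and the share of control leukocytes was 1.10%. *Pgf* (0.289% and 0.370%) and *Nid2* (0.445% and 0.528%) were likewise below the fibroblast shares of 3.52% and 5.46% for *Pgf* and 1.01% and 1.37% for *Nid2*. For *Cxcr4*, *Adm*, *Pgf* and *Nid2* a UMI was therefore no more frequent in TECs than in another cell group of the same libraries.

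*Plvap* and *Dll4* separated TECs from leukocytes in the share of cells with a UMI. *Plvap* had a UMI in 53.4% (52.0 to 54.9) and 48.2% (45.9 to 50.4) of TECs, against 0.734% and 0.300% of leukocytes. *Dll4* had a UMI in 14.2% (13.2 to 15.3) and 13.5% (12.01 to 15.1) of TECs, against 0.183% and 0.0999% of leukocytes and 0 of 116 and 0 of 72 epithelial cells, which allows up to 2.59% and 4.17%. *Vwa1* had a UMI in 1.40% and 1.95% of TECs and in 1 of 545 and 0 of 2002 leukocytes. Other cell groups held more of *Plvap* and *Vwa1* than leukocytes did. *Plvap* was at 82.6 and 79.7 CPM in cells marked by *Hmga2*, against 654 and 510 CPM in TECs. *Vwa1* was at 4.99 and 10.3 CPM in fibroblasts, against 11.3 and 16.6 CPM in TECs.

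*Insr* had a UMI in 12.2% (11.3 to 13.2) and 15.5% (13.9 to 17.2) of TECs, and it was as frequent in epithelial cells (15.5% and 12.5%) and fibroblasts (16.1% and 14.7%). *Trp53i11* had a UMI in 4.91% and 4.70% of TECs and in 3.30% and 4.80% of leukocytes, so that its TEC share in Dnmt1iECKO was not above that background, while 24.6% and 27.1% of *Ubd* TECs carried it.

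**Figure D3:**
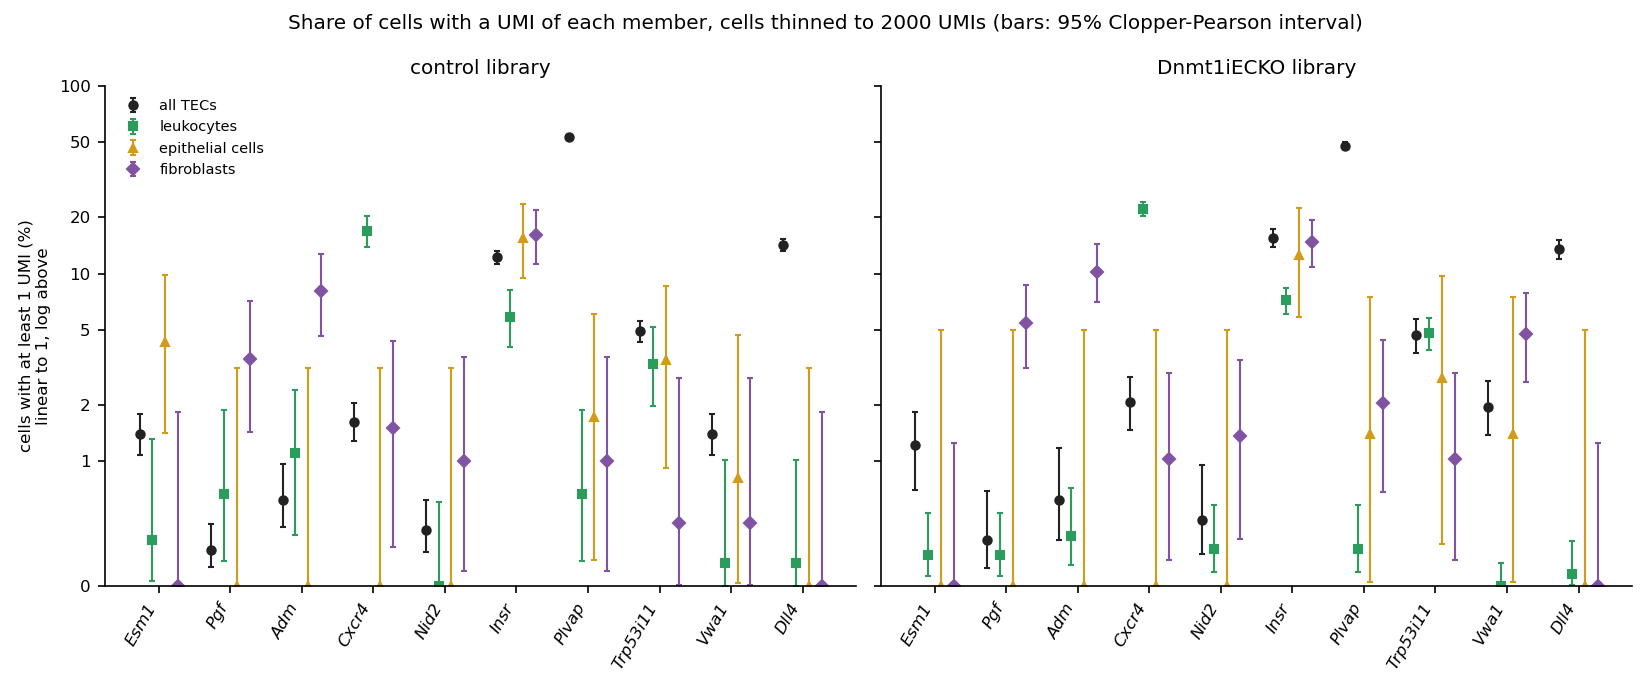
Share of cells with at least 1 UMI of each gene after thinning every cell to 2000 UMIs, in TECs and in other cell groups of the 2 libraries, with exact 95% binomial intervals. *Plvap* and *Dll4* separate TECs from leukocytes, whereas *Cxcr4* is more frequent in leukocytes (16.9% and 22.1%) and *Adm* in fibroblasts (8.04% and 10.2%).

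The UMIs of the rarer genes sat in a handful of cells. The 10 TECs with most *Esm1* held 35.0% of its control UMIs and 66.4% of its Dnmt1iECKO UMIs, those with most *Pgf* 56.9% and 62.9%, and those with most *Nid2* 32.1% and 46.5%. By contrast the top 10 cells held 3.11% and 6.79% of *Dll4* and 2.29% and 6.64% of *Plvap*. Since the Dnmt1iECKO library had fewer TECs, 10 cells were a larger part of it, and the shares of the libraries are not directly comparable.

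**Figure D4:**
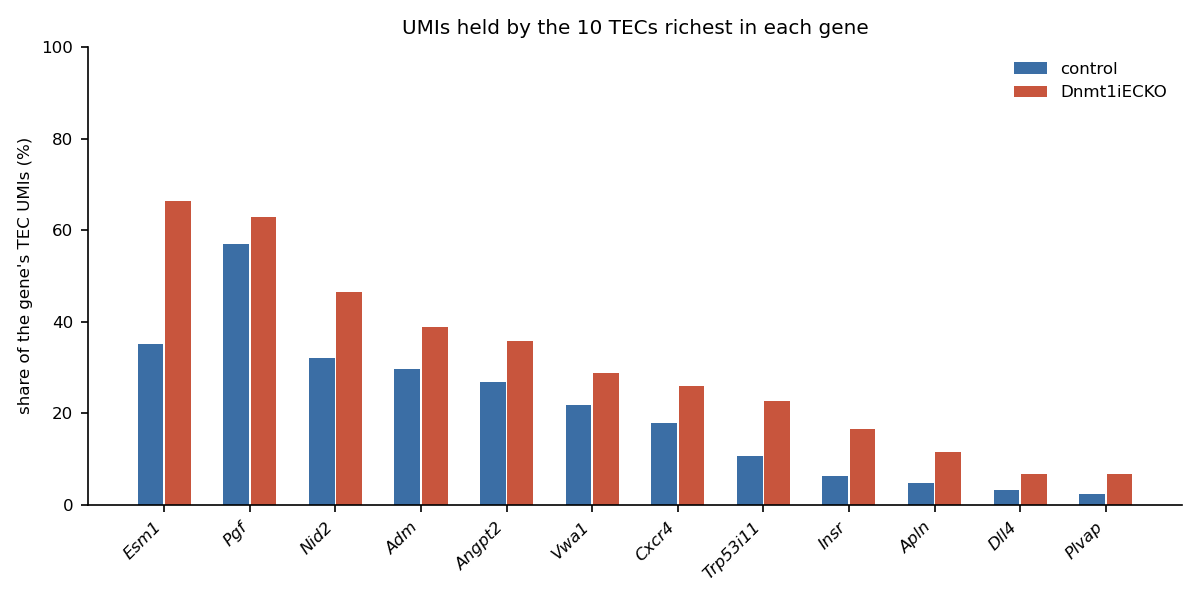
Share of each gene's TEC UMIs that lie in the 10 cells with most UMIs of that gene, for the control library (4854 TECs) and the Dnmt1iECKO library (2066 TECs). *Esm1* and *Pgf* are the most concentrated (66.4% and 62.9% in Dnmt1iECKO) and *Plvap* and *Dll4* the least.

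*Esm1* in particular was split between many cells with fewer than 10 UMIs and a few with a high level. Control TECs included 16 cells with 10 or more *Esm1* UMIs, which held 289 of 634 UMIs, and Dnmt1iECKO TECs included 11 such cells with 243 of 351 UMIs. Of the 16 control cells, 7 were *Kit*/*Bmp6*, 4 *Gja5*/*Bmx*, 4 *Ubd* and 1 *Ednrb*/*Car4* TECs. Of the 11 Dnmt1iECKO cells, 4 were *Kit*/*Bmp6*, 2 *Gja5*/*Bmx*, 2 *Ednrb*/*Car4*, 1 *Mki67* and 2 unclassed TECs. *Esm1*-high cells thus occurred in *Kit*/*Bmp6*, *Ednrb*/*Car4* and *Gja5*/*Bmx* TECs of both libraries, and the class levels of *Esm1* follow where those few cells lay: 2 cells held 68 of the 79 UMIs in Dnmt1iECKO *Ednrb*/*Car4* TECs.

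TECs with a UMI of *Esm1* after thinning (63 control and 23 Dnmt1iECKO cells) carried more of several other genes of the set than TECs without one. *Cxcr4*, *Plvap*, *Vwa1* and *Dll4* were at least 1.5-fold higher in both libraries, 4 of the 6 other genes with 100 UMIs at this depth, among 4.76% of all genes, and 0 were lower, among 13.4%. The *Cxcr4* level was log2 2.97 (1.70 to 4.02) higher in control and 3.02 (1.08 to 4.49) in Dnmt1iECKO, and 12.7% and 13.0% of *Esm1*-positive TECs had a *Cxcr4* UMI against 1.47% and 1.92% of the others. The *Esm1*-positive cells held 8 and 4 *Cxcr4* UMIs. *Plvap* was log2 0.83 higher in each library (0.58 to 1.07 in control and 0.34 to 1.29 in Dnmt1iECKO). *Esm1*-positive TECs also differed in class: 12.7% and 13.0% were *Gja5*/*Bmx* TECs, against 2.04% and 4.02% of all TECs. *Ednrb*/*Car4* TECs made up 12.7% and 13.0% of them, against 29.0% and 21.6% of all TECs. The part of this class make-up in the differences was not tested.

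For *Dll4* the difference was 0.75 (-0.03 to 1.44) in control and 1.62 (0.60 to 2.48) in Dnmt1iECKO, and for *Vwa1*, from 5 and 2 UMIs in the *Esm1*-positive cells, 2.48 (0.81 to 3.78) and 1.92 (-1.17 to 3.86), so each of them had an interval across 0 in 1 library. *Insr* was 0.42 (-0.54 to 1.23) and 1.39 (0.43 to 2.21). *Trp53i11* differed between libraries, at 1.88 (0.95 to 2.68) in control and -0.46 (-5.78 to 2.05) in Dnmt1iECKO, where the *Esm1*-positive cells had 1 UMI. *Adm* had 5 UMIs in the 63 control cells and 0 in the 23 Dnmt1iECKO cells, *Angpt2* 13 and 0, and *Pgf* and *Nid2* had 0 in both. *Apln*, which is both an aerocyte and a tip cell gene, was lower in *Esm1*-positive TECs, by log2 -1.18 (-2.40 to -0.20) in control and -1.02 (-4.08 to 0.84) in Dnmt1iECKO.

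**Figure D5:**
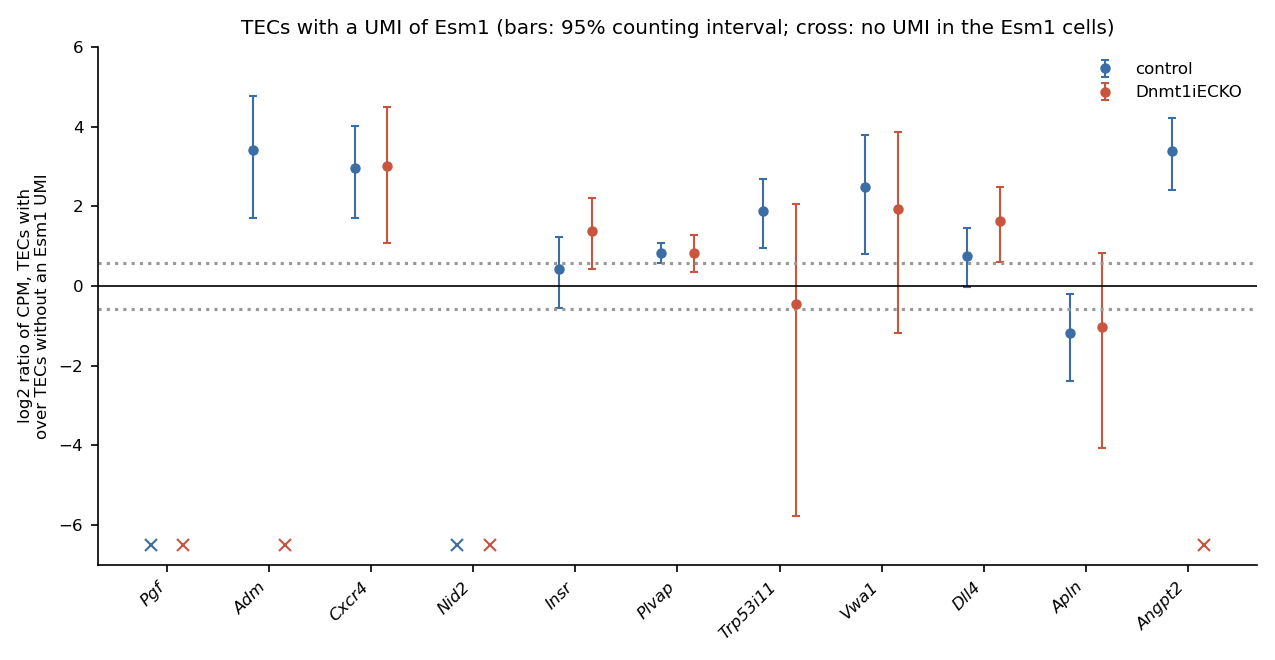
Log2 ratio of the level in TECs with over TECs without an *Esm1* UMI, for the other genes in the 2 libraries at 2000 UMIs per cell, with exact 95% intervals. *Cxcr4* (2.97 and 3.02) and *Plvap* (0.83 and 0.83) lie above 0 in both libraries, and *Apln* lies below 0 in both.

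Cells with several tip cell genes were rare. Of the 6 genes *Esm1*, *Apln*, *Angpt2*, *Cxcr4*, *Adm* and *Pgf*, at least 2 had a UMI in 48 of 4497 control TECs (1.07%, 0.788 to 1.41) and in 12 of 1894 Dnmt1iECKO TECs (0.634%, 0.328 to 1.10). Without *Apln* the numbers were 19 (0.423%) and 8 (0.422%). In leukocytes, where *Cxcr4* is abundant, 4 of 545 (0.734%) and 7 of 2002 (0.350%) cells passed the same rule with *Apln*, and in fibroblasts 3 of 199 (1.51%) and 3 of 293 (1.02%). The intervals of the TEC shares overlapped those of leukocytes (0.200 to 1.87 and 0.141 to 0.719) and fibroblasts (0.312 to 4.34 and 0.212 to 2.96) in each library. Epithelial cells gave 0 of 116 and 0 of 72, which allows up to 2.59% and 4.17%.

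Among classes, *Gja5*/*Bmx* TECs had 7 of 99 such cells in control (7.07%, 2.89 to 14.0) and 1 of 83 in Dnmt1iECKO (1.20%, 0.0305 to 6.53). *Ednrb*/*Car4* TECs had 19 of 1348 in control, of which 0 remained without *Apln*. When the 10 genes of the set were counted in place of the tip cell genes, at least 2 were found in 20.5% of TECs in each library. That share was 44.6% and 41.4% in *Ubd* TECs and 8.23% and 7.51% in *Ednrb*/*Car4* TECs.

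A wider list of 37 other tip cell and angiogenesis genes gave no common shift. Of the 35 with 100 UMIs, *Nrp2* and *Lama4* were at least 1.5-fold higher in Dnmt1iECKO TECs and *Apln* was lower, that is 2 and 1 of 35 beside the 7.67% and 2.13% of all genes, and the list's median log2 ratio was 0.00. *Nrp2*, a VEGF and semaphorin co-receptor, was at 55.2 and 89.0 CPM (log2 0.69, 0.61 to 0.77) and was highest in *Slc6a2*/*Selp* TECs, at 204 and 239 CPM. *Lama4*, a laminin chain of vessel basement membranes, was at 42.4 and 70.3 CPM (log2 0.73, 0.64 to 0.82). *Apln* was at 155 and 94.3 CPM (log2 -0.71, -0.78 to -0.65), and within *Ednrb*/*Car4* TECs at 438 and 309 CPM (log2 -0.50, -0.58 to -0.43). *Angpt2*, the Tie2 ligand stored by sprouting endothelium, was at 13.4 and 18.8 CPM (log2 0.48, 0.32 to 0.65) and at 55.1 and 44.4 CPM in *Ubd* TECs.

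The partners of the set moved by less than 1.5-fold over all TECs. *Calcrl* and *Ramp2*, which together form the adrenomedullin receptor, were at 3315 and 2626 CPM and at 1673 and 1401 CPM (log2 -0.34 and -0.26), and *Ramp3* had a log2 ratio of 0.07. *Cxcl12*, the ligand of *Cxcr4*, was at 220 and 318 CPM (log2 0.53, 0.49 to 0.57) and, like its receptor, was high in *Gja5*/*Bmx* TECs, at 1200 and 1403 CPM. *Flt1*, the receptor of *Pgf*, was at 1091 and 969 CPM. The *Dll4* receptors *Notch1* (186 and 172 CPM) and *Notch4* (54.9 and 54.7 CPM), the nidogen *Nid1* (124 and 122 CPM) and the insulin-like growth factor receptor *Igf1r* (167 and 179 CPM) had log2 ratios between -0.11 and 0.10. *Nid1* thus did not share the ratio of *Nid2*.

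The genes whose class pattern was most like each of the 10 were found by Pearson's r of log2(CPM + 10) over the 12 points given by 6 classes and 2 libraries, among 10053 genes. The points share libraries, and r is a description. *Trp53i11* was most like *Zbp1* (0.98), *Rgcc* and *Akr1b8* (0.97 each), and *Vwa1* most like *Laptm4b* (0.97), *AA467197* and *Rell1* (0.95 each). *Plvap* was most like *D16Ertd472e* and *Itga6* (0.98 each) and *Nedd4* (0.95), and *Insr* most like *Uap1* and *Apold1* (0.96 each) and *Ptpn3* (0.94). *Cxcr4* was most like *Api5* (0.97), *Man2a2* (0.92) and *Polr1a* (0.91).

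The lower genes had weaker neighbors. *Adm* was most like *Gm14207* (0.91), *Gja5* (0.90), which is itself a gate gene, and *Actr5* (0.88), *Esm1* most like *Gm14207* (0.90), *Tnks2* (0.88) and *Amd1* (0.87), and *Dll4* most like *2810402E24Rik* and *Dars* (0.90 each) and *Zfp260* (0.89). *Gm14207* overlaps *Dll4* exons on the opposite strand. *Nid2* was most like *Ndufs8*, *Pus1* and *Nme1* (0.92 each) and *Pgf* most like *Gm16685* (0.89), *Ppp6r1* (0.85) and *Zbtb21* (0.83). Within the set, r was 0.83 for *Trp53i11* with *Vwa1* and for *Adm* with *Cxcr4*, 0.76 for *Adm* with *Dll4* and for *Esm1* with *Cxcr4*, and 0.69 for *Esm1* with *Dll4*.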

How the data were processed

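Single cells sorted as CD31+CD45- were sequenced as 2 libraries (10x Genomics 3′ chemistry) and counted by the authors with Cell Ranger 9.0.1 on mm10. The deposited matrices hold raw UMI counts per gene and cell, 9301 control and 9522 Dnmt1iECKO barcodes with 123830489 and 141433493 UMIs (median 8904 and 8762). The barcode and feature lists were used only as names.

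Cells with at least 500 genes and at most 10% mitochondrial UMIs were kept (8021 and 8102). The far higher gene minimum stated in the study's methods was not used because it leaves few cells. The cells ranked highest by a Scrublet-type doublet score were removed (257 and 263, 0.4% per 1000 cells). TECs had a UMI of *Cdh5* or *Pecam1* and none of *Ptprc*, *Epcam*, *Cspg4* or *Myh11*. Class gates needed 3 UMIs of the gate genes and were applied in order (*Mki67*, *Ubd*, *Slc6a2*/*Selp*, *Gja5*/*Bmx*, then the capillary gate with more UMIs), since gates that admit cells of 1 class only left few *Ubd* cells. This was set from gate genes alone. Other cell groups had no UMI of *Cdh5* or *Pecam1*. TECs passing no gate are unclassed (median 2859 and 3018.5 UMIs).

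UMIs were summed per class and scaled to CPM with exact Poisson intervals. Ratios have exact conditional intervals, and shares have Clopper-Pearson intervals after thinning each cell to 2000 UMIs. A share of 0 is given with the limit that 3 counts allow, and a level of 0 with its Poisson bound. Genes with 100 UMIs over both libraries (20 within a class) were compared, and a difference is a fold of 1.5. With 1 library per group there is no test. The scripts were tested on simulated data.

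The genes and lists were chosen with earlier results of these data known. The genes named are the 10, those of the list of 37 that passed 1.5-fold or are partners of the 10, and the 3 most similar genes by class (500 UMIs or more). Promoters are from RefSeq (GRCm38.p6), which matched 6 of the 10 genes. Alternatives covered filters, gates, scaling, thinning and thresholds. Python 3.11.15, numpy 2.4.6, scipy 1.17.1, pandas 2.3.3, scanpy 1.11.5 and matplotlib 3.10.9 were used.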

Additional observations from a re-analysis of the deposited data

Results flagged for a closer look

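With the gates in order, *Esm1* differed between libraries in opposite directions in different classes of TECs, and the difference between the classes was not tested. The log2 ratio of Dnmt1iECKO over control was 1.91 (1.41 to 2.41) in *Ednrb*/*Car4* TECs, from 63 UMIs in 25 control cells and 79 UMIs in 6 Dnmt1iECKO cells, and it was 1.38 without the top cell of each library. It was -4.45 (-6.10 to -3.18) in *Ubd* TECs, from 107 UMIs in 7 cells and 5 UMIs in 3 cells. It was -0.91 (-1.36 to -0.47) in *Gja5*/*Bmx* TECs, from 24 of 99 and 9 of 83 cells, and -1.52 without the top cells. The *Gja5*/*Bmx* TECs that pass 1 gate only, 14 in control and 19 in Dnmt1iECKO, went the other way, with 11 and 32 *Esm1* UMIs. So did the *Ednrb*/*Car4* TECs that pass 1 gate only. They had 28 *Esm1* UMIs in 1020 control cells and 0 in 316 Dnmt1iECKO cells, so the higher Dnmt1iECKO level was not seen there. The intervals count UMIs as independent, whereas most of these UMIs lay in few cells.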

How the results depend on the processing

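No paired analysis was possible because each group has 1 library and the groups share fewer than 2 replicate numbers. Of the 10 genes, the 2 that were 1.5-fold higher over all TECs became 1 with a mitochondrial limit of 5%, with the class composition of the control library or without the top cell of each gene, 4 (*Pgf*, *Nid2*, *Insr*, *Vwa1*) with both *Cdh5* and *Pecam1* required, and 0 where only cells with *Ptprc* were left out. None was lower under any alternative. The number of genes found in at least 5% of TECs of each library was 3 (*Insr*, *Plvap*, *Dll4*), 6 without thinning, 4 at 5000 UMIs and 4 with no doublet removal. The share of TECs with several tip cell genes, 1.07% and 0.634%, was 8.90% and 10.1% without thinning, 3.64% and 3.52% at 5000 UMIs, and 0.111% and 0.106% with 3 genes required. Of all genes, 14.1% were higher and 6.13% lower with a minimum of 10 UMIs, and 2.41% and 0.715% with a fold of 2.

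The class calls numbered 14 higher and 14 lower, and 11 to 14 and 13 to 20 under the alternatives. The calls of *Trp53i11* and *Vwa1* in *Ubd*, *Insr* in *Slc6a2*/*Selp* and *Cxcr4* in *Gja5*/*Bmx* TECs held under 8 of 8 alternatives, and those of *Cxcr4* and *Plvap* in *Ubd* TECs under 6. Reversed log2 values against the other classes were, for *Adm* in *Ubd* TECs, -0.25 in control without the top cell and -1.93 in Dnmt1iECKO with cells given to the class of most gate UMIs; for *Nid2* in *Ubd* TECs, -0.62 with Leiden clusters and -1.33 without the top cell in control, and -0.95 with most gate UMIs in Dnmt1iECKO. In Dnmt1iECKO, *Pgf* in *Kit*/*Bmp6* TECs was 1.08 with most gate UMIs, *Plvap* in *Ubd* TECs -0.55 with cells passing 1 gate only, and *Adm* in *Gja5*/*Bmx* TECs -0.49 with Leiden clusters. *Trp53i11* in control *Mki67* TECs was -1.24 with cells passing 1 gate only. The cause was not tested. *Vwa1* in *Mki67* TECs, a higher call, counted as lower under that alternative, from 0 UMIs in 9 control and 5 Dnmt1iECKO cells. In a single library, *Adm* and *Cxcr4* in Dnmt1iECKO *Ubd* TECs (5 cells) under that alternative and *Adm* in control *Gja5*/*Bmx* TECs with Leiden clusters also had 0 UMIs, and *Nid2* did not reach 100 UMIs with 1 gate only. Of 569 recomputed single values with UMIs in the class, 394 moved by less than their counting interval, 166 by more, and 9 reversed. Alternatives that leave out the top cell, use classed TECs only or admit cells of 1 gate only were chosen after seeing the data.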

Other observations

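*Esm1* was also found outside the endothelium. In epithelial cells, which had no UMI of *Cdh5* or *Pecam1*, it was at 18.5 CPM (14.1 to 23.9) in the control library, from 58 UMIs in 12 of 118 cells, while Dnmt1iECKO had 16 UMIs in 7 of 75 cells. A group of cells marked by *Hmga2* had 5.08 CPM in the control library (3.32 to 7.44), compared with 14.3 CPM (11.9 to 16.9) in Dnmt1iECKO, where 1 cell held 28 of 132 UMIs. Fibroblasts had 0 and 2 UMIs, and pericytes and smooth muscle cells had 0 in both libraries. Their part in the TEC level of *Esm1* was not tested.

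*Adm* was a fibroblast gene in these libraries, at 50.8 CPM (44.6 to 57.5) in fibroblasts of the control library, compared with 71.3 CPM (64.9 to 78.2) in Dnmt1iECKO. Unclassed TECs, in which the fibroblast markers summed to 2557 and 4293 CPM, held 22.4 and 23.0 CPM of *Adm*, and the classed TECs 4.81 and 4.76 CPM. Unclassed TECs were mixed: lymphatic markers (*Prox1*, *Ccl21a*, *Mmrn1*) summed to 1412 and 1408 CPM there, against 96.6 and 38.0 CPM in classed TECs. The platelet markers *Ppbp* and *Pf4* summed to 302 and 289 CPM in unclassed TECs. The part of each of these in the *Adm* level was not tested.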
